A study of Homo sapiens with 8 samples.

Results

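The 10 genes described here encode membrane transporters that bring amino acids into the cell, and the partner chain that some of them need. They are SLC3A2, SLC7A5, SLC7A6, SLC7A11, SLC7A1, SLC1A4, SLC1A5, SLC38A1, SLC38A2 and SLC6A9, taken by gene symbol from 23368 genes listed in the count files. Of the listed genes 14448 had enough counts to be tested, and all 10 transporter genes were among them. The cells were U87MG, an established human glioblastoma line, and the libraries measured RNA by sequencing. The treatment was enzalutamide, an androgen receptor antagonist used against prostate cancer.

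There were 4 groups of 2 libraries each: untreated control cells, and cells after 4 h, 24 h and 48 h of enzalutamide. The study asked how gene expression in this line responds to the drug. The labels give neither a dose nor a vehicle, and give no time in culture for the untreated cells. All groups are labelled as the same line, grown in DMEM with serum and antibiotics, and 1 shared protocol states that cells were harvested after differentiation, without saying what that refers to. Whether both libraries of a group stem from different cultures is not stated in the labels, so the p-values measure the spread between libraries, which may be technical.

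Amino acid transporters differ in what they carry and in what drives them. SLC3A2, the heavy chain also called CD98, does not transport by itself: it binds light chains of the SLC7 family and carries them to the plasma membrane, where the pair exchanges one amino acid for another. Sodium-coupled carriers of the SLC38 family load cells with glutamine and small neutral amino acids, which exchangers can then trade for others such as leucine. Glioma cells are known for using cystine uptake through SLC7A11 to make glutathione, with release of glutamate. Several of these genes are known targets of ATF4, a transcription factor of the amino acid response, and SLC7A11 is also a known target of NRF2, the product of NFE2L2.

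The libraries held 24620833 to 37162565 counts, and levels are given as CPM, counts scaled to library size with TMM factors, with mean ± SD over the 2 libraries of a group. The 48 h libraries stood apart from the others: on the first principal component, which held 65.8% of the variance, they lay at 88.0 and 79.0, and the other 6 libraries lay between -37.6 and -19.5. VIM, CD44, FN1 and CHI3L1, markers of a mesenchymal glioblastoma line, were all detected, whereas the astrocytic marker GFAP was at 0.07 to 0.63 CPM. Summed, these 5 were at 21727 to 22933 CPM at 48 h and 13563 to 14262 CPM in control cells. Of the 4 immune markers CD3E and AIF1 were at 0 in every library and PTPRC at no more than 0.20 CPM, while CD68, summed with them, brought the list to 930 to 1049 CPM at 48 h and 657 to 712 CPM in control cells. The summed neuronal markers were lower at 48 h, 21.2 to 22.3 CPM, than in control cells, 36.4 to 37.4 CPM, most of it SNAP25, and the part of these shifts in the results was not tested. In bulk RNA a gene that falls because fewer cells express it cannot be told apart from one with less RNA per cell.

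Short DNA words around the transcription starts show what the promoters of these genes hold. Windows of 250 bases before to 50 after each start, from RefSeq on GRCh38.p14, matched 9 of the 10 genes by symbol, with 15 windows in all. SLC7A11 had no window, so its promoter was not searched for any of these words. Both strands were searched for TGATGNAA, a composite element of C/EBP and ATF factors, for TGACNNNGC, the core of the antioxidant response element, and for the E-box CACGTG. TGATGNAA occurred in SLC3A2, SLC7A1, SLC1A4, SLC1A5 and SLC38A1, 5 of the 9 genes, and in 4.46% of all 27305 genes with a window (3.62% of windows). The sites are shown because these 5 genes include the one that rose most and others that fell at the same time. They are printed on the strand of the gene, 5′ to 3′, with the match in capitals and distances counted to its first base.
SLC3A2, chr11:62881725-62881748, plus strand, 37 bases after 1 of its 3 starts: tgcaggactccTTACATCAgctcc
SLC7A1, chr13:29595663-29595692, minus strand, 7 bases after the start: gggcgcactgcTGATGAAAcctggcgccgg
SLC1A4, chr2:64989381-64989410, plus strand, 7 bases before 1 of its 2 starts: gcggctcccgtTTGCATCAtctccagccgg
SLC1A5, chr19:46784893-46784922, minus strand, 97 bases before 1 of its 3 starts: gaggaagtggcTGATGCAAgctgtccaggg
SLC38A1, chr12:46266502-46266531, minus strand, 4 bases before 1 of its 2 starts: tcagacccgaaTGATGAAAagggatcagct
TGACNNNGC occurred in 5 of the 9 genes, SLC3A2, SLC7A1, SLC7A5, SLC7A6 and SLC1A5, and in 16.1% of all genes with a window (13.3% of windows). In SLC3A2 it lay 37 bases before the same start.
SLC3A2, chr11:62881652-62881680, plus strand: cgagggtgggTGACTCAGCgtcctccttc
CACGTG occurred in SLC7A5 and SLC1A5, and in 8.77% of all genes with a window (7.26% of windows). None of the printed matches overlaps another. A match is a description of the letters and was not shown to be bound here, and a window without one says only that these letters are absent from it.

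At 4 h the heavy chain and 3 of its light chains rose, at 24 h none of these 4 was called above control, and at 48 h the heavy chain rose far above every earlier level while most of the transporters proper fell. At 4 h, 4 of the 10 genes were called higher than in control cells and 0 lower, where a call is a Benjamini-Hochberg adjusted p under 0.05 in edgeR's quasi-likelihood test. Over all genes tested, 15% were called higher and 13.6% lower in that comparison. At 24 h, 0 of the 10 were higher and 3 lower, against 12.9% of all genes higher and 9.39% lower. At 48 h, 1 was higher and 7 were lower, against 33.3% of all genes higher and 33.5% lower. The counts over all genes also moved when 1 library was left out. At 4 h the 2163 higher ran from 1207 to 2992 and the 1964 lower from 986 to 2791. The 24 h counts, 1866 higher and 1356 lower, ran from 843 to 2879 and from 489 to 2075. The low ends came without a library of the groups compared, and the high ends came without a 48 h library.

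The median log2 change of the 10 genes was 0.19 at 4 h, -0.13 at 24 h and -0.47 at 48 h, beside -0.004, 0.015 and -0.022 for all genes tested. The 3 comparisons share the control libraries, so an error in those enters each of them. Groups without overlap were common among all genes tested. Both 4 h libraries lay above both controls in 34.1% of genes and below them in 34.5%. These shares were 35.6% and 30.6% at 24 h and 40.2% and 41.8% at 48 h. Between times, 0 of the 10 genes were called higher and 6 lower at 24 h than at 4 h, where 21.2% and 20.3% of all genes were. At 48 h against 24 h, 3 were called higher and 7 lower, where 31.5% and 35.3% of all genes were. The medians of those changes were -0.48 and -0.36, beside -0.006 and -0.068 for all genes.

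**Figure D1:**
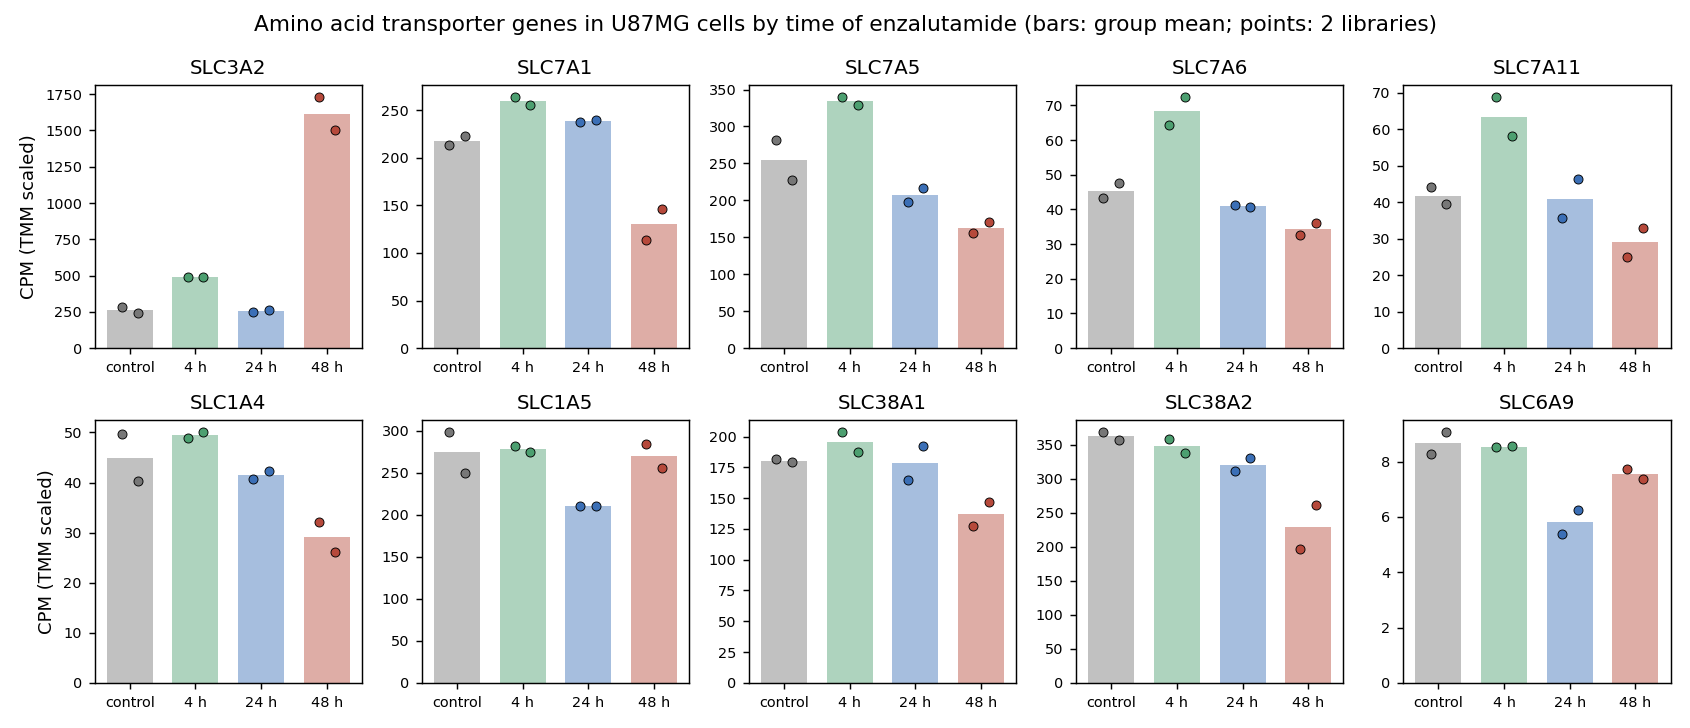
Level of each amino acid transporter gene in CPM (TMM scaled, linear axes starting at 0, each with its own range) in control cells and after 4, 24 and 48 h of enzalutamide, with points for the 2 libraries and bars for the group mean. SLC3A2 stands at 1727 and 1505 CPM at 48 h, far above its other 6 libraries, while 7 of the other genes are lowest at 48 h.

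SLC3A2 was at 280 and 243 CPM without drug, 493 and 491 CPM after 4 h, 252 and 260 CPM after 24 h, and 1727 and 1505 CPM after 48 h. Both 4 h libraries and both 48 h libraries lay above every control library, and the 24 h libraries lay within the control range. The level averaged 492 ± 1.27 CPM at 4 h and 261 ± 26.3 CPM in control cells, a log2 change of 0.91 ± 0.08 (SE, adjusted p = 1.93e-05). At 24 h it was back at 256 ± 6.20 CPM, a log2 change of -0.03 ± 0.08 against control (adjusted p = 0.840), and lower than at 4 h by a log2 change of -0.94.

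At 48 h SLC3A2 averaged 1616 ± 157 CPM, 6.18-fold its control level (log2 change 2.63 ± 0.09, adjusted p = 1.50e-09). By log2 change against control it was number 39 from the top of the 14448 genes tested. Its share of all counts of the 10 genes was 63.9% and 58.1% in the 48 h libraries, against 15.8% and 15.0% in control libraries. Its promoter window printed above, with a TGATGNAA and a TGACNNNGC match, shares both words with that of SLC7A1, which fell at 48 h.

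Of the 5 tested light chains that pair with SLC3A2, 3 rose with it at 4 h and fell at 48 h: SLC7A5, SLC7A6 and SLC7A11. SLC7A5, the LAT1 chain that takes up leucine and other large neutral amino acids, had 282 and 227 CPM without drug, 339 and 329 CPM after 4 h, 198 and 217 CPM after 24 h, and 155 and 171 CPM after 48 h. Its 4 h libraries were the highest of the 8 and its 48 h libraries the lowest, with no overlap between groups at any step of that order. The log2 change was 0.39 ± 0.09 at 4 h (adjusted p = 0.0101), -0.29 ± 0.09 at 24 h (adjusted p = 0.0456) and -0.64 ± 0.10 at 48 h (adjusted p = 1.15e-04). Between 24 h and 4 h it was -0.69. Near-identical copies of SLC7A5 may share its reads: SLC7A5P2 was listed at 10.9 and 10.6 CPM at 48 h and 4.62 and 3.68 CPM in control libraries, the opposite direction to SLC7A5.

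SLC7A6, the chain of an exchanger of cationic for neutral amino acids, had 43.4 and 47.5 CPM without drug, 64.2 and 72.3 CPM after 4 h, 41.4 and 40.7 CPM after 24 h, and 32.5 and 36.2 CPM after 48 h. The 4 h libraries were above all others and the 48 h libraries below all others. It rose at 4 h (log2 change 0.59 ± 0.09, adjusted p = 5.30e-04) and fell at 48 h (-0.40 ± 0.09, adjusted p = 0.00181), and was not called at 24 h (-0.15). A gene on the opposite strand, SLC7A6OS, covers 53.0% of its exon length in the GENCODE annotation of GRCh38, and the use of strand in counting is not known. SLC7A6OS went the other way at 48 h, with 16.3 and 12.99 CPM there and 8.87 and 6.62 CPM in control libraries.

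SLC7A11, the xCT chain that imports cystine in exchange for glutamate, had 44.1 and 39.5 CPM without drug, 68.7 and 58.1 CPM after 4 h, 35.5 and 46.3 CPM after 24 h, and 25.0 and 33.0 CPM after 48 h. The 4 h libraries stood above the rest, the 24 h libraries lay on both sides of the controls, and the 48 h libraries lay below the rest. Its log2 change was 0.60 ± 0.15 at 4 h (adjusted p = 0.0106), -0.03 ± 0.15 at 24 h and -0.53 ± 0.15 at 48 h (adjusted p = 0.00888). The calls for SLC7A5 and SLC7A11 at 4 h rested on single libraries: without control replicate 2 their adjusted p was 0.102 and 0.0949, and leaving out 4 h replicate 1 gave 0.0719 and 0.101. The 48 h call for SLC7A11 was lost without control replicate 1 (adjusted p = 0.0683).

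The balance of heavy to light chain RNA was compared within each library, per kb of exon so that genes of different length can be set side by side. Lengths were of merged exons, the transcripts in use are not known, and the balance of the proteins was not measured. The ratio of SLC3A2 to SLC7A5, SLC7A6, SLC7A11, SLC7A7 and SLC7A8 summed was 1.43 and 1.46 without drug, 2.00 and 2.03 after 4 h, 1.73 and 1.64 after 24 h, and 15.3 and 11.9 after 48 h. All 6 treated libraries thus had a higher summed ratio than either control, and the 2 at 48 h stood far above the rest. At 24 h, of the single light chains, only SLC7A5 gave ratios above both controls, 2.19 and 2.08. The 24 h ratio to SLC7A6 was 14.6 and 15.3, against 15.5 and 12.2 in control libraries. To SLC7A11 it was 25.7 and 20.5, against 23.1 and 22.3, and those to SLC7A7 and SLC7A8 overlapped the controls too. Against SLC7A5 alone the ratio was 19.2 and 15.2 at 48 h and 1.72 and 1.85 in control libraries. The ratio is taken within a library, so the scaling between libraries does not enter it. SLC7A7 and SLC7A8, the other partner chains that were tested, were not called against control at any of the 3 times, with levels of 0.24 to 0.97 CPM and 4.66 to 9.23 CPM.

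**Figure D2:**
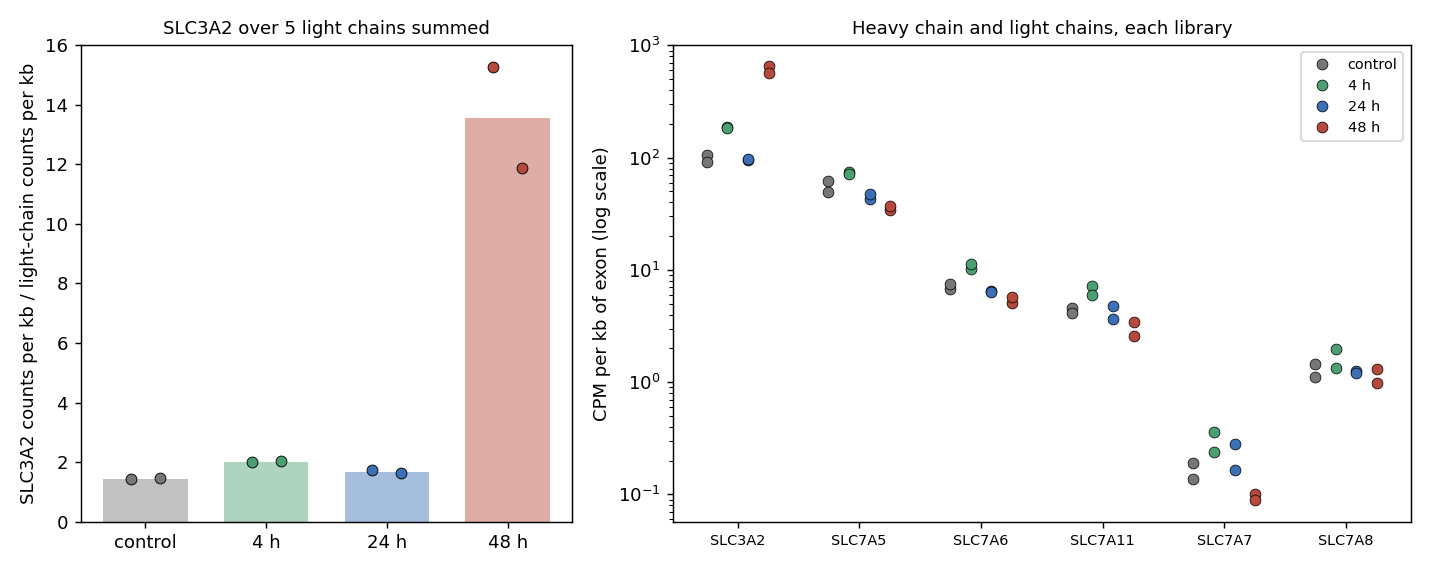
Left, the within-library ratio of SLC3A2 to 5 light chains summed, in counts per kb of exon, with points for the 2 libraries and bars for the mean; right, the level of SLC3A2 and each light chain in CPM per kb of exon on a log axis, 1 point per library. The ratio is 15.3 and 11.9 at 48 h and between 1.43 and 2.03 in the other libraries.

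SLC7A1, the CAT1 carrier of arginine and lysine, works without a heavy chain. It had 213 and 223 CPM without drug, 263 and 256 CPM after 4 h, 238 and 240 CPM after 24 h, and 114 and 147 CPM after 48 h. The 4 h and 24 h libraries were above the controls and the 48 h libraries well below them. The fall at 48 h was a log2 change of -0.74 ± 0.10 (adjusted p = 3.84e-05), and the difference from 24 h was -0.87. At 4 h the log2 change of 0.25 ± 0.09 missed the threshold (adjusted p = 0.0701), and passed it when only the libraries of those 2 groups were fitted (adjusted p = 0.00245).

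Of the 2 SLC1 carriers of neutral amino acids, SLC1A4 was low at 48 h and SLC1A5 at 24 h. SLC1A4, the ASCT1 carrier of alanine, serine and cysteine, had 49.6 and 40.3 CPM without drug, 48.9 and 50.1 CPM after 4 h, 40.7 and 42.3 CPM after 24 h, and 32.1 and 26.2 CPM after 48 h. Its 48 h libraries lay clear below the controls, and the fall there was a log2 change of -0.63 ± 0.11 (adjusted p = 5.29e-04). SLC1A5, the ASCT2 carrier that is a main entry route of glutamine, had 298 and 250 CPM without drug, 282 and 275 CPM after 4 h, 210 and 211 CPM after 24 h, and 285 and 255 CPM after 48 h. It was low at 24 h and overlapped the controls at 4 h and at 48 h. The log2 change was -0.38 ± 0.08 at 24 h (adjusted p = 0.00815), 0.02 at 4 h and -0.02 at 48 h (adjusted p = 0.820). Between 48 h and 24 h SLC1A5 was higher at 48 h by a log2 change of 0.36.

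The calls at 24 h depended on single libraries. Without control replicate 1 the adjusted p of SLC1A5 was 0.101 and that of SLC7A5 was 0.417, with a log2 change of -0.13 for SLC7A5. Leaving out 24 h replicate 1 gave 0.0683 for SLC1A5 and 0.276 for SLC7A5, and leaving out 24 h replicate 2 gave 0.0672 and 0.105. The call for SLC7A5 was also lost without 4 h replicate 1 (adjusted p = 0.0773) or 4 h replicate 2 (adjusted p = 0.0764), whose libraries enter the shared estimate of spread. The count of members called lower at 24 h, 3 in all libraries, was 1 without control replicate 1, 0 without 24 h replicate 1 and 1 without 24 h replicate 2. Fits that left out a 48 h library called 1 member higher at 24 h, SLC7A1. Reads of SLC1A5 could also be shared with AC008622.2, an antisense gene on 23.4% of its exon length.

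SLC38A1 and SLC38A2, sodium-coupled carriers of glutamine and alanine, were called against control at 48 h but not at 4 h or 24 h. SLC38A2, the SNAT2 carrier, was counted at 368 and 357 CPM without drug, 358 and 338 CPM after 4 h, 311 and 330 CPM after 24 h, and 197 and 261 CPM after 48 h. Both 48 h libraries were below all others, though they differed from each other more than those of any other group. The log2 change at 48 h was -0.66 ± 0.10 (adjusted p = 1.81e-04), and at 24 h it was -0.18 ± 0.10, not called (adjusted p = 0.253) but called when only those 2 groups were fitted (adjusted p = 0.00543). SLC38A1, the SNAT1 carrier, had 181 and 179 CPM without drug, 204 and 187 CPM after 4 h, 165 and 192 CPM after 24 h, and 128 and 147 CPM after 48 h. It too was lowest in the 48 h libraries, with a log2 change of -0.40 ± 0.09 (adjusted p = 0.00204).

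SLC6A9, the GLYT1 carrier of glycine, was the least abundant member, with 205 to 315 raw counts per library. CCDC24, a gene on the opposite strand, covers 7.67% of SLC6A9's exon length, so reads could be shared between these genes. CCDC24 was at 7.22 and 6.87 CPM in control libraries and at 10.99 and 9.52 CPM at 48 h. SLC6A9 had 8.27 and 9.06 CPM without drug, 8.52 and 8.56 CPM after 4 h, 5.38 and 6.25 CPM after 24 h, and 7.72 and 7.36 CPM after 48 h. Both 24 h libraries lay below the other 6. The log2 change was -0.58 ± 0.13 at 24 h (adjusted p = 0.0101) and -0.20 ± 0.13 at 48 h (adjusted p = 0.197). The 24 h call was lost without control replicate 2 (adjusted p = 0.0810) and without 24 h replicate 1 (adjusted p = 0.108).

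**Figure D3:**
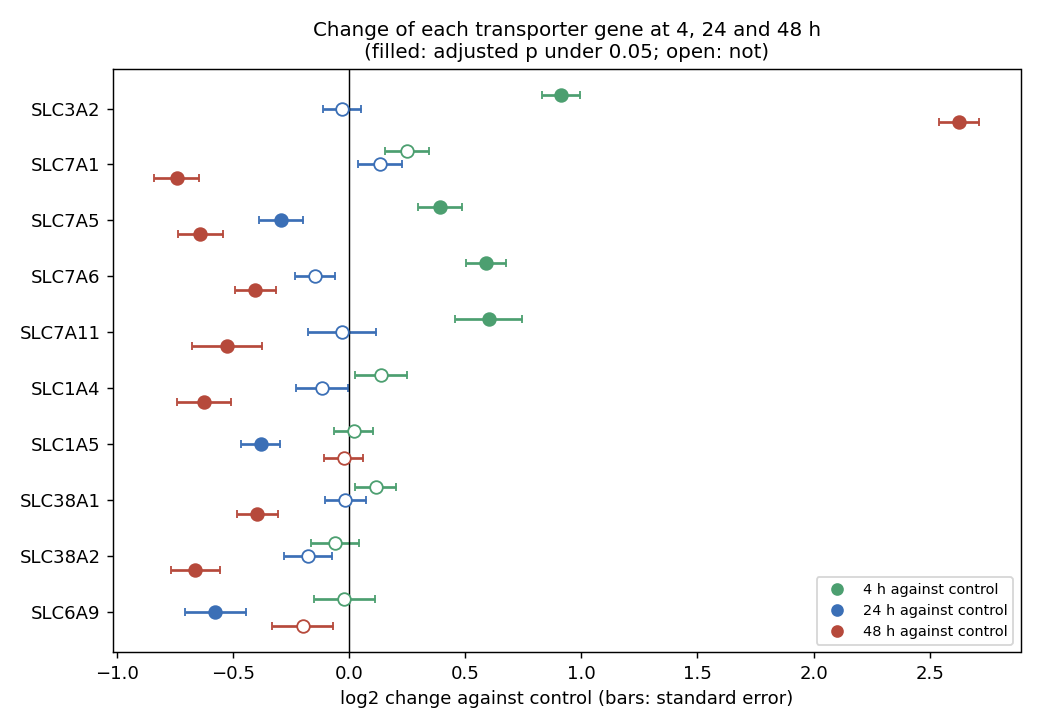
Log2 change against control of each amino acid transporter gene after 4, 24 and 48 h of enzalutamide from edgeR's quasi-likelihood fit; bars are standard errors, and filled points passed an adjusted p of 0.05. SLC3A2 lies at 0.91, -0.03 and 2.63, while the 48 h points of 7 other genes lie between -0.74 and -0.40.

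Scaling mattered most at 48 h. When counts were scaled by library totals alone, the median change of all genes at 48 h moved to -0.30. Of the 14448 genes tested 2742 were then called higher, 28.95% of all calls, where TMM gave 4814 and 49.8%. Most calls over all genes were thus lower under library totals. The members were then 1 higher and 9 lower. The 2 added were SLC1A5, at -0.30, which is that median itself, and SLC6A9, at -0.48. SLC3A2 stayed higher and the other 7 stayed lower under the TMM factors, DESeq2 size factors and library totals. Together the 10 genes took 0.235% and 0.233% of the counts in 48 h libraries and 0.189% and 0.174% in control libraries. Without SLC3A2 they took 0.0849% and 0.0974% at 48 h and 0.159% and 0.148% in control libraries, so the rise of the sum lay with the heavy chain. At 48 h against 24 h, SLC1A5 and SLC6A9 were not called higher with library totals (adjusted p = 0.128 and 0.316), which left 1 member higher. Over all genes 32.1% of the calls in that comparison were higher with library totals, and 47.1% with TMM. The SLC6A9 rise was also not called in edgeR with at least 5 CPM in 2 libraries or only those 2 groups (adjusted p = 0.0632 and 0.0523). The count of 7 lower in that comparison dropped without 24 h replicate 2. Of the 7, SLC7A6 was not called by DESeq2 (adjusted p = 0.0742). Nor was it called in edgeR with DESeq2 size factors or only those 2 groups (adjusted p = 0.0536 and 0.0663). Its log2 change ran from -0.33 to -0.18 over the fits that left out 1 library, some of which lost the call.

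The order of the members by level, per kb of exon, is a description of these libraries. In control cells it ran SLC3A2 (98.5 CPM per kb), SLC1A5 (82.3), SLC38A2 (72.5), SLC7A5 (55.5), SLC7A1 (29.7), SLC38A1 (19.3), SLC1A4 (9.58), SLC7A6 (7.15), SLC7A11 (4.33) and SLC6A9 (2.01). The gaps between the first 3 were smaller than the summed SDs of the neighbours, and the other gaps were larger. At 48 h SLC3A2 stood at 609 ± 59.3 CPM per kb and the next, SLC1A5, at 81.0 ± 6.20. The order of the 10 genes was the same at 48 h as in control cells, but SLC38A2 and SLC7A5, SLC7A1 and SLC38A1, and SLC1A4 and SLC7A6 did not differ there beyond their summed SDs.

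Other genes followed the members' patterns over the 8 libraries, measured by Pearson's r of log2 CPM. The 8 libraries are 4 groups of 2, so r describes mainly the 4 group levels. The genes named had the highest r of all genes searched, so the selection itself favours high values. A link in function was not tested. For SLC3A2 the 3 closest genes were GFER (r = 0.998), MED29 (0.997) and SYS1 (0.997), whose own log2 changes at 48 h were 1.16, 0.61 and 0.72. For SLC7A11 they were RGPD4 (0.985), which has near-identical copies and is uncertain, FBXO30 (0.976) and C1orf131 (0.970). The closest gene to SLC7A5 was RRAGB (0.991), a GTPase that passes amino acid signals to mTORC1, with log2 changes of 0.46 at 4 h, -0.47 at 24 h and -0.98 at 48 h. For the rest they were OTUD4 for SLC7A1 (0.998), UTP3 for SLC7A6 (0.993), PYCRL for SLC1A4 (0.981), PSMB10 for SLC1A5 (0.979), ZNF721 for SLC38A1 (0.992), CHST2 for SLC38A2 (0.990) and P2RX6 for SLC6A9 (0.964).

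The other amino acid transporters are a list of 52 genes, of which 29 were tested. Of these 9 were called higher and 2 lower at 4 h. The counts were 1 higher and 8 lower at 24 h and 3 higher and 17 lower at 48 h, with median log2 changes of 0.06, -0.15 and -0.39. Of all genes, 15% were higher and 13.6% lower at 4 h, 12.9% higher and 9.39% lower at 24 h, and 33.3% higher and 33.5% lower at 48 h. The counts at 4 h and 24 h depended on the library left out. The 9 higher at 4 h became 2 without control replicate 2, 3 without control replicate 1 or 4 h replicate 2, and 4 without 4 h replicate 1. The 2 lower at 4 h became 0 without any 1 of the control, 4 h or 24 h libraries and 4 without either 48 h library. The 1 higher at 24 h became 0 without any 1 of the control or 24 h libraries and 2 without either 48 h library. The 8 lower at 24 h became 3 without control replicate 2 or 24 h replicate 2, 4 without control replicate 1 and 5 when 24 h replicate 1 was left out. The 17 lower at 48 h ranged from 15 to 17 over the fits that leave out 1 library.

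At 4 h the smallest p-values among these transporters belonged to PQLC2, a lysosomal exporter of cationic amino acids (log2 change 0.52 ± 0.08), SLC25A44, the mitochondrial carrier of branched-chain amino acids (0.59 ± 0.10), and CTNS, the lysosomal cystine exporter (0.43 ± 0.10). At 24 h they belonged to SLC25A29, a mitochondrial carrier of basic amino acids (-0.68 ± 0.10), SLC1A3, the glial glutamate transporter (-0.59 ± 0.10), and SLC38A6 (-0.60 ± 0.11). At 48 h SLC1A3 was at 4.36 and 4.81 CPM, against 22.8 and 24.8 CPM in control libraries, and its log2 change was -2.37 ± 0.12 (adjusted p = 2.95e-08). SLC25A44 and SLC38A9, a lysosomal arginine transporter and sensor, fell with it (-1.76 ± 0.12 and -2.17 ± 0.15).

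The 3 that rose at 48 h, named after their values were seen, were SLC43A1, SLC43A2 and SLC25A38. SLC43A1 and SLC43A2 are carriers of large neutral amino acids that need no heavy chain, and SLC25A38 is a mitochondrial glycine carrier. Their log2 changes were 2.23 ± 0.19, 1.72 ± 0.18 and 0.78 ± 0.08. SLC43A1 was at 9.36 and 9.04 CPM at 48 h and 2.07 and 1.84 CPM in control libraries, with no overlap between the groups.

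**Figure D4:**
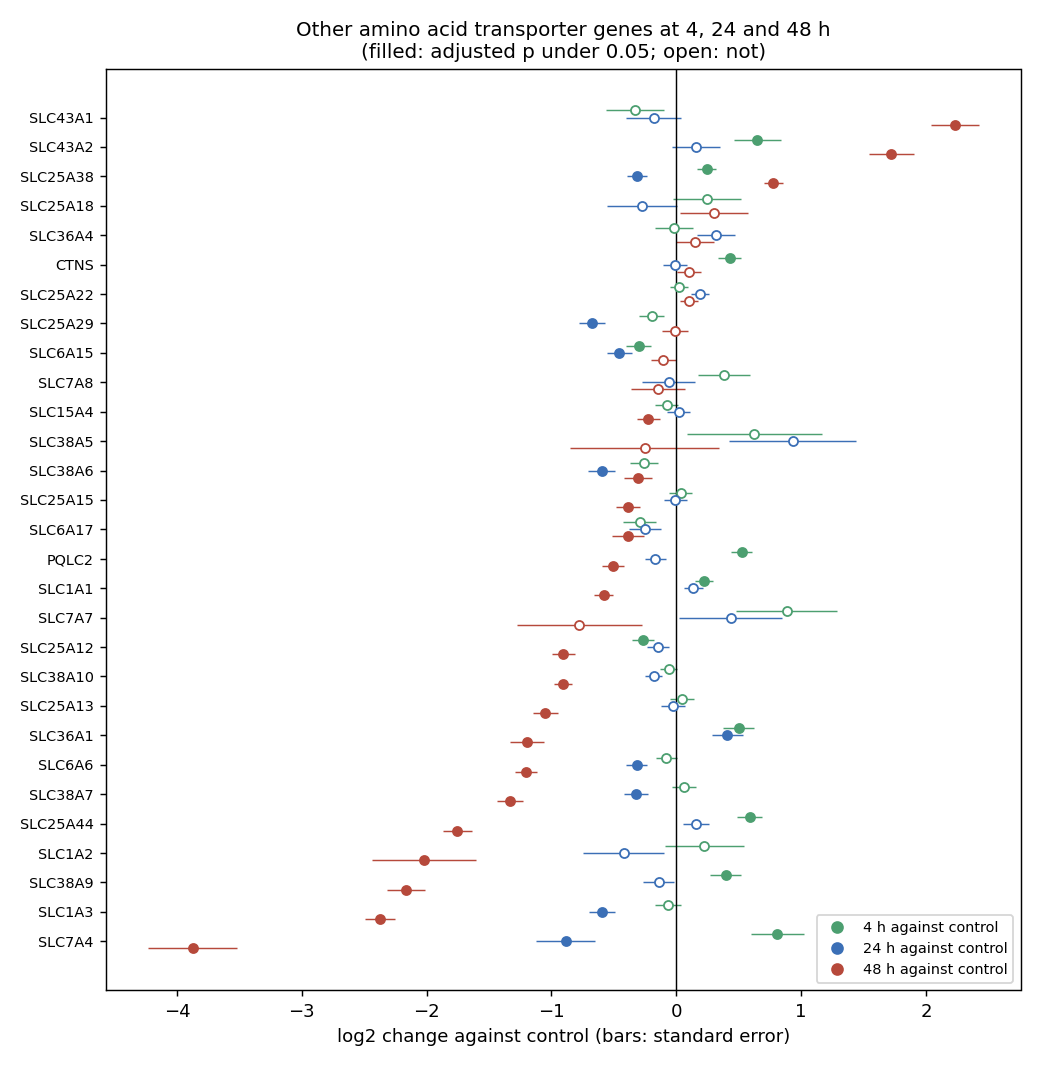
Log2 change against control of the 29 other amino acid transporter genes that were tested, after 4, 24 and 48 h; bars are standard errors, filled points passed an adjusted p of 0.05, and genes are sorted by their 48 h value. At 48 h 3 genes lie higher (SLC43A1, SLC43A2 and SLC25A38) and 17 lower among the filled points.

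Downstream of uptake, the genes of cystine use and glutathione synthesis split at 48 h: 6 of 12 tested were called higher and 3 lower, with a median log2 change of 0.34, where 33.3% of all genes were called higher and 33.5% lower. CHAC1, which breaks down glutathione, had a log2 change of -2.13. GCLM, the modifier subunit of the rate-limiting enzyme of glutathione synthesis, and CBS, which makes cystathionine, were lower too, with log2 changes of -0.89 and -1.34. CTH, which makes cysteine from cystathionine, rose by 1.14, and GCLC, the catalytic subunit, by 0.48. The counts were 2 higher and 1 lower at 4 h (15% and 13.6% of all genes), then 1 higher and 2 lower at 24 h (12.9% and 9.39%). Of 9 genes of glutamine and branched-chain amino acid use, 3 were higher and 3 lower at 48 h, with a median of -0.05, shares near those of all genes. Among them GLUL, which makes glutamine, rose by 1.32. At 4 h 2 of these 9 were higher and 2 lower, and at 24 h 0 and 0, where 12.9% and 9.39% of all genes were called.

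Of 20 tested genes of amino acid sensing by mTORC1, 2 were higher and 2 lower at 4 h, 1 higher and 4 lower at 24 h, and 11 higher and 5 lower at 48 h. The background was 15% higher and 13.6% lower after 4 h, 12.9% higher and 9.39% lower after 24 h, and 33.3% higher and 33.5% lower after 48 h. SESN2, a leucine sensor that restrains mTORC1, was among those that rose (log2 change 1.46 ± 0.12). Scaled by library totals alone, the 11 higher became 6 and the list's median of 0.24 became -0.04. Under that scaling the 48 h counts were 3 higher and 19 lower for the other transporters, 5 and 3 for cystine use and glutathione, 1 and 4 for glutamine and branched-chain use, and 9 and 1 for the regulators described next. The background moved too. Over all 14448 genes 2742 were called higher under library totals, 28.95% of all calls, against 49.8% of calls with TMM.

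The regulators of the amino acid response and their relatives, 11 genes, were mostly higher at 48 h. At 4 h 6 were called higher and 1 lower, at 24 h 4 higher and 0 lower, and at 48 h 9 higher and 0 lower, with a median log2 change of 1.12 at 48 h. For all genes the shares higher were 15%, 12.9% and 33.3% at these times, while 13.6%, 9.39% and 33.5% were lower. ATF4 was counted at 1023 and 931 CPM at 48 h and 326 and 277 CPM in control libraries, a log2 change of 1.70 ± 0.08 (adjusted p = 2.13e-08). DDIT3, a partner of C/EBP factors induced under stress, was at 1418 and 1223 CPM at 48 h and 72.8 and 59.9 CPM in control libraries (log2 change 4.31 ± 0.12). Both lay far above the controls. NFE2L2, which encodes NRF2, had a log2 change of 1.08 ± 0.06 and MYC, an E-box factor, of 2.70 ± 0.07. At 4 h DDIT3, NFE2L2 and MYC were already called higher (0.37, 0.24 and 0.50), and ATF4 was not (0.20, adjusted p = 0.0916). Of the 5 genes with a TGATGNAA match, SLC3A2 was higher at 48 h, SLC7A1, SLC1A4 and SLC38A1 were lower, and SLC1A5 was not called. RNA levels of regulators do not give their protein levels, and binding was not measured.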

How the data were processed

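RNA was sequenced in 8 libraries of U87MG cells, with groups and replicate numbers taken from the labels. The authors deposited raw counts, whole numbers listed by gene symbol and not normalised. Per the submitters' processing notes, Bowtie was used with the builds hg19 and GRCh37. Its version, the counter, the gene annotation and the strand setting were not given in the sources used here.

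Tests were run in R 4.3.3 with edgeR 4.0.16. filterByExpr kept 14448 genes, and TMM factors ran from 0.870 to 1.08. A single quasi-likelihood fit held all 8 libraries, a coefficient for each group and 4 residual degrees of freedom (biological coefficient of variation 7.15%). Calls needed a Benjamini-Hochberg adjusted p under 0.05 over all genes tested. SE is the absolute log2 change over the square root of F. Likeness was measured on log2 CPM (prior count 2) among genes averaging at least 2. Exon lengths are merged exons of protein-coding transcripts in GENCODE on GRCh38.

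Alternatives were DESeq2 1.42.0, limma-voom (limma 3.58.1), DESeq2 size factors, library totals, no filter, at least 5 CPM in 2 libraries, only the groups compared, the replicate number as a block, and each library left out. A fit without the 48 h libraries was chosen after seeing the data. A group left with 1 library was assumed to vary like the others. The edgeR fit was first tested on simulated counts, with 200 genes changed at 48 h and the result read at 48 h against control. The alternatives, the ratios and the promoter search had no such test.

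The members and gene lists were chosen with earlier results of these data known. Named genes were all members, the 3 called other transporters with the smallest p per comparison with control, the closest gene to each member by correlation (3 for SLC3A2 and SLC7A11) and the called regulators whose motifs were searched. The named genes of the cystine, glutamine and mTORC1 lists were chosen after their values were seen.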

Additional observations from a re-analysis of the deposited data

Results flagged for a closer look

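SLC7A5 moved in opposite directions at 4 h and at 24 h: both libraries were above both controls at 4 h and both were below them at 24 h. Of all genes tested, 34.1% had both libraries above both controls at 4 h, and 30.6% had both below them at 24 h. The difference between 24 h and 4 h was itself tested and was a log2 change of -0.69 (adjusted p = 1.88e-04 in edgeR's quasi-likelihood test). It kept its call in each fit that left out 1 library, although both values against control did not. The 4 h value lost its call without control replicate 2 (adjusted p = 0.102) or 4 h replicate 1 (adjusted p = 0.0719), and the 24 h value without control replicate 1 or any of the 4 h and 24 h libraries (adjusted p = 0.0764 to 0.417).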

How the results depend on the processing

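The log2 change of each member was recomputed under each alternative, 830 values in all: 766 kept direction and side of the threshold, 33 lost a call, 20 gained one and 11 changed sign. None of the 11 belonged to a called result, and of 31 called results 18 kept their call under every alternative run. 10 of the sign changes came from leaving out 1 library, and the other was SLC1A5 at 4 h with library totals (-0.043). Over the fits that each left out 1 library, the 4 h value of SLC1A4 ran from -0.0060 to 0.30, that of SLC1A5 from -0.10 to 0.15 and that of SLC6A9 from -0.087 to 0.044. The 24 h value of SLC3A2 ran from -0.13 to 0.078, of SLC7A11 from -0.23 to 0.15, of SLC1A4 from -0.26 to 0.043 and of SLC38A1 from -0.13 to 0.091. The 48 h value of SLC1A5 ran from -0.14 to 0.11. Leaving out 1 library gave 2 to 5 members higher at 4 h, 0 to 1 higher and 0 to 4 lower at 24 h, 6 to 7 lower at 48 h, 4 to 7 lower at 24 h against 4 h, and 2 to 3 higher and 4 to 7 lower at 48 h against 24 h. With library totals 1 member was higher at 48 h against 24 h. Library totals moved the share of higher calls among all calls to 38.2% at 4 h, 41.4% at 24 h, 28.95% at 48 h and 32.1% at 48 h against 24 h, where TMM gave 52.4%, 57.9%, 49.8% and 47.1%. Genes called lower at 24 h numbered 1356, against 2412 with only the groups compared and 2330 without the 48 h libraries. Genes called higher at 48 h numbered 4814, against 2742 with library totals. Same-numbered libraries deviated from their group means with correlations of -0.005 to 0.135. The labels do not say whether the numbers pair libraries, and these correlations cannot settle it. With a replicate block in the edgeR fit, 5 members were higher at 4 h, with SLC7A1 added (adjusted p = 0.0394), and no other member call changed. The cause of these shifts was not tested. With 2 libraries per group a call can rest on 1 library, and SLC6A9, at 205 to 315 counts a library, had the least depth of the members.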
